A study of Mus musculus with 2 samples.

Results

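The cells described here were Lgr5 cells of mouse ileal enteroids with high Olfm4 and few transcripts of proliferation genes. They were chosen by their own counts: at least 5000 UMIs (unique molecular identifiers, each standing for 1 captured transcript molecule), at least 1 UMI of Lgr5, Olfm4 at 5 or more UMIs per 10000 UMIs of the cell, and less than 8 UMIs per 10000 for each of 2 sums. The first sum held 5 genes of mitosis (Mki67, Top2a, Cenpf, Ccnb1 and Cdc20) and the second held 7 genes of DNA replication (Mcm2, Mcm3, Mcm4, Mcm5, Mcm6, Ung and Dtl). Of 4374 cells, 463 (10.6%) met this rule, 399 of 2563 in the control library and 64 of 1811 in the Taf4 IEC library. The levels of these genes selected the cells and are given below only as a description.

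Enteroids, which are 3D cultures of intestinal epithelium, were grown from ileal crypts of 4-month-old C57Bl6/129sv mice, and live cells were sorted and captured on a 10X Genomics instrument that reads transcripts from their 3′ end. The Taf4 IEC library came from Taf4 lox/lox::VilCreERT2 enteroids, in which a tamoxifen-dependent Cre recombinase is driven by the promoter of villin, an epithelial gene, after 3 days with 1 µM 4-hydroxytamoxifen (4-OHT). The label of the control library names wild-type enteroids in ethanol, whereas the methods of the study name Taf4 lox/lox enteroids given 4-OHT, so whether the control carried the floxed alleles and saw the drug cannot be told from the sources. The comparison asks how gene expression in the stem cell (SC) compartment differs after inactivation of Taf4, which encodes a component of TFIID, a complex that starts transcription. There was 1 library per condition and the number of mice behind each is not given in the sources used here, so no test was possible, and all intervals are 95% intervals for counting error only.

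The control library held 39947009 UMIs and the Taf4 IEC library 24990128. At least 5000 UMIs were found in 77.6% of control cells and in 41.9% of Taf4 IEC cells, which are called deep cells here. No control cell had more than 4999 detected genes, whereas Taf4 IEC cells reached 5997, so the deposited files end at different upper limits. Of the 64 Taf4 IEC cells described here 34 had at least 5000 genes, a size that the control file does not hold, and the counts, lists and named genes that moved most without them are given below. Among the Olfm4-high cells the median depth was 19424 UMIs and 3696 genes in the control and 31574 UMIs and 5044 genes in Taf4 IEC. Their median mitochondrial share was 6.96% and 7.83%, and Malat1, a nuclear RNA that is often raised in damaged cells, was at 27.3 and 41.1 UMIs per 10000, and the part of these differences in the results below was not tested. The libraries shared 2 cell barcodes.

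Lgr5 encodes a receptor for R-spondins, secreted proteins that amplify Wnt signals, and marks the crypt base columnar cells from which the intestinal epithelium is renewed. In build GRCm38.p6 it lies at chr10:115450314-115587780. Olfm4 encodes a secreted glycoprotein that depends on Notch activity and is abundant in these cells, with its gene at chr14:80000302-80023141. Active SCs divide regularly, so that cells with few proliferation transcripts at the moment of capture can include SCs between divisions as well as cells that have left the cycle.

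The label was checked against markers. The 5 SC markers Lgr5, Olfm4, Aqp4, Clca3b and Pcdh8 summed to 20.8 UMIs per 10000 (20.5 to 21.2) in the control Olfm4-high cells and to 26.2 (25.5 to 27.0) in those of Taf4 IEC, of which Olfm4 alone gave 14.8 and 21.4. Lgr5 and Olfm4 selected the cells, so this sum is a description and does not check the label. The other markers of the sum were each lower in Taf4 IEC, as given below. Aqp4, a water channel, Clca3b, of the calcium-activated chloride channel regulator family, and Pcdh8, a protocadherin, were not part of the rule. After each cell was thinned to 5000 UMIs, Aqp4 was found in 42.9% of control and 21.9% of Taf4 IEC cells, Clca3b in 56.4% and 54.7%, and Pcdh8 in 11.5% and 4.69%. In enterocytes (deep cells with Apoa1 at 10 or more per 10000, median depth 22745 and 42265 UMIs), which should lack these genes, the thinned shares were 2.35%, 2.35% and 0 of 85 cells in the control (which allows a share of up to 3.53% for Pcdh8), and 0 of 88 cells for each in Taf4 IEC (which allows up to 3.41%). The shares of Aqp4 and Clca3b were thus above those given by free RNA in both libraries, whereas the interval for Pcdh8 in Taf4 IEC (0.977% to 13.1%) reached below that limit. The unthinned shares in the Olfm4-high cells were 77.7% and 59.4% for Aqp4, 87.0% and 92.2% for Clca3b, and 32.8% and 21.9% for Pcdh8.

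Markers of the mature lineages were low but not absent. The 7 Paneth markers summed to 4.69 UMIs per 10000 in the control and 3.57 in Taf4 IEC Olfm4-high cells, the 7 goblet markers to 6.61 and 4.04, the 8 enteroendocrine markers to 2.77 and 1.53, and the 10 enterocyte markers to 4.71 and 4.74. The Paneth UMIs were unevenly spread, with 1.21 per 10000 in the median control cell and 470 in the highest, whereas the enterocyte sum had medians of 3.88 and 3.91, near its pooled levels. The 6 tuft markers were near 0, at 0.0554 and 0.00545 per 10000, with Dclk1 at 0 UMIs in both libraries. Of the markers of other tissues only Vim was found, and Col1a1, Col3a1, Ptprc, Cd3e, Pecam1 and Cdh5 were at 0 UMIs or not listed. All lineage sums together (38 genes) reached 20 per 10000 in 36 control and 10 Taf4 IEC cells, which were kept, and no doublet caller was run.

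Olfm4-high cells with low proliferation made up 20.1% of deep control cells (18.3 to 21.9%) and 8.44% of deep Taf4 IEC cells (6.56 to 10.7%), which differ by -11.6 percentage points (-14.3 to -8.81). Among deep cells with an Lgr5 UMI the shares were 26.6% and 15.2%. Cells of the same rule but with Olfm4 under 5 per 10000, called Olfm4-low here, made up 34.4% and 40.0%, and Olfm4-high Lgr5 cells with either proliferation sum at 8 or more, called proliferating, 9.31% and 3.56%. Both Olfm4-high populations were therefore smaller shares in Taf4 IEC, whereas the Olfm4-low share was larger. When each cell was thinned to 5000 UMIs before applying the rule, the difference was -6.52 points. Fewer cells then met the rule in both libraries, 245 rather than 399 in the control and 44 rather than 64 in Taf4 IEC. The smaller difference in points thus goes with smaller shares in both libraries. Among deep cells with under 5000 genes the difference was -13.0 points.

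**Figure D1:**
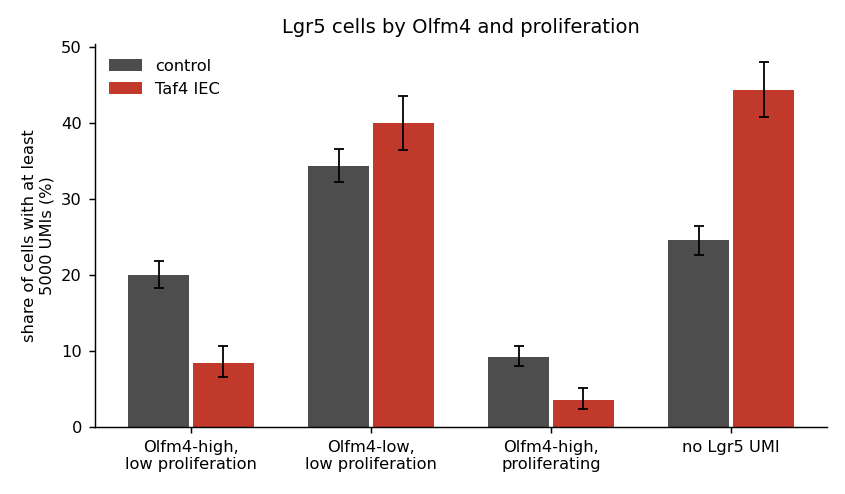
Share of cells with at least 5000 UMIs (%) in 4 populations, for the control (grey) and Taf4 IEC (red) library, with bars from 0 and 95% Clopper-Pearson intervals for counting error. The Olfm4-high, low proliferation cells stand at 20.1% and 8.44%, and the Olfm4-low and Lgr5-free cells take larger shares in Taf4 IEC. Olfm4-low proliferating cells are not drawn.

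The genes of the rule behaved as follows in the selected cells. Olfm4 ran from 5.01 to 68.4 UMIs per 10000 among control cells with a median of 12.0, and from 5.04 to 76.2 with a median of 16.4 among Taf4 IEC cells. Lgr5 had a median of 2.21 and 2.16 per 10000, and 74.9% and 87.5% of the cells held at least 3 Lgr5 UMIs. The nearest cells outside the Olfm4 threshold were at 4.96 and 4.99, and 36 control and 6 Taf4 IEC cells lay between 4 and 5 against 32 and 5 cells between 5 and 6. Olfm4 is thus continuous at the threshold. In the Olfm4-low cells, 46.4% in the control and 72.6% in Taf4 IEC had no Olfm4 UMI at all. The median mitotic sum was 0.661 and 0.419 and the median replication sum 2.44 and 2.32, well under the limit of 8.

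Taf4 itself (chr2:179912146-179976646) was read too rarely to check the genotype. In the Olfm4-high cells it had 50 UMIs (control) and 15 (Taf4 IEC), 0.063 (0.0467 to 0.083) and 0.0817 (0.0457 to 0.135) per 10000, with a log2 ratio of 0.38 (-0.56 to 1.23). These UMIs come from the 3′ end of the transcript, and since the position of the deleted exons is not given in the sources used here, they do not show whether the gene was inactivated. Its paralogue Taf4b had 24 and 10 UMIs, at 0.0302 and 0.0545 per 10000. None of the 10 other TFIID subunits with enough UMIs differed by 2-fold: their median log2 ratio was 0.49, from -0.23 (Taf5) to 0.77 (Taf13, at 0.379 in the control and 0.648 per 10000 in Taf4 IEC).

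Ratios were taken from UMIs summed over the Olfm4-high cells of each library, per 10000 UMIs, for genes with at least 100 UMIs over both. Of 6811 such genes, 200 (2.94%) were at least 2-fold higher in Taf4 IEC and 121 (1.78%) at least 2-fold lower. The median log2 ratio of all 6811 genes was 0.24 rather than 0, and 74.4% of them were above 0. Ribosomal protein transcripts moved the opposite way, from a median of 37.6% of the UMIs of a control cell to 30.0% of those of a Taf4 IEC cell. Relative to the median ratio, 87 genes were at least 2-fold higher and 205 at least 2-fold lower, so the split between the directions depends on this scaling, and a list's median is to be read against 0.24. With mitochondrial and ribosomal protein genes left out of the total the counts were 100 and 172. Without the Taf4 IEC cells of 5000 or more genes, 214 genes were at least 2-fold higher and 266 at least 2-fold lower.

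Crypt base markers did not move as 1 group. Of 14 with enough UMIs, 2 were at least 2-fold higher in Taf4 IEC, 2 at least 2-fold lower and 10 in between, against 2.94% and 1.78% of all genes, with a median log2 ratio of 0.34. Nrn1, encoding the membrane-anchored protein neuritin, was the lowest, at 0.450 per 10000 in the control and 0.0599 in Taf4 IEC, a log2 ratio of -2.91 (-3.92 to -2.05), and 54.5% of its 11 UMIs in Taf4 IEC came from 1 cell. It was -2.0 without the Taf4 IEC cells of 5000 or more genes. Aqp4 was at 1.23 and 0.403 per 10000, a ratio of -1.61 (-1.97 to -1.27), which was -0.79 when the rule was applied to cells thinned to 5000 UMIs. Pcdh8 was at 0.292 and 0.153 (-0.94, -1.56 to -0.37) and Clca3b at 2.18 and 1.63 (-0.42, -0.60 to -0.24). The 3 markers of this population that the rule did not use were thus all lower in Taf4 IEC, Clca3b by the least, with -0.13 when the Taf4 IEC cells of 5000 or more genes were left out. On the other side, Tifa, an adaptor of innate immune signalling, was at 0.242 and 0.605 (1.32, 0.97 to 1.67), Hk2, a hexokinase, at 0.258 and 0.534 (1.05, 0.69 to 1.40), and Smoc2, a secreted matrix-associated protein, at 2.19 and 3.47 (0.66, 0.53 to 0.79). Slc12a2, a sodium, potassium and chloride cotransporter and the most abundant of the list, was at 5.87 and 7.26 (0.31, 0.22 to 0.40). The 4 markers ascribed to reserve SCs were above 0, as were 74.4% of all genes, with Lrig1, an inhibitor of EGF receptors, at 0.363 and 0.741 (1.03, 0.73 to 1.33), and Hopx at 3.82 and 4.58 (0.26, 0.15 to 0.37). Only Lrig1 of these 4 reached 2-fold. Their median was 0.61, and -0.026 when the rule was applied to cells thinned to 5000 UMIs.

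Wnt signals act through Frizzled receptors and Lrp coreceptors on the cell surface, and switch on both effectors and their own inhibitors. Of 15 genes of the pathway with enough UMIs, 12 were above 0 (74.4% of all genes were), 3 at least 2-fold higher and 1 at least 2-fold lower in Taf4 IEC (2.94% and 1.78% of all genes), with a median log2 ratio of 0.63 (0.38 relative to the median of all genes). Among the targets, Ccnd1, encoding cyclin D1, was at 0.682 per 10000 in the control and 2.52 in Taf4 IEC, a log2 ratio of 1.89 (1.70 to 2.07), and was found in 29.1% and 57.8% of the cells after thinning to 5000 UMIs. Tnfrsf19, a receptor of the TNF receptor family, was at 0.0667 and 0.256 (1.94, 1.34 to 2.53) and reached the minimum only through its Taf4 IEC level, and the cell surface glycoprotein gene Cd44 at 0.151 and 0.419 (1.47, 1.04 to 1.90). The transcription factor genes Sox9 and Myc were at 1.44 and 2.65 (0.88, 0.72 to 1.03) and at 0.418 and 0.719 (0.78, 0.48 to 1.08). The feedback inhibitors were also higher: Axin2 was at 0.997 and 1.68 (0.75, 0.56 to 0.94), and Rnf43, a ligase that removes Frizzled receptors, at 0.335 and 0.545 (0.70, 0.36 to 1.04). Ascl2, a transcription factor of SC identity, went the other way, at 0.633 and 0.359 (-0.82, -1.21 to -0.44). Wnt3, a ligand known from Paneth cells, was at 0.135 and 0.0545 (-1.31, -2.41 to -0.37) with only 10 UMIs in Taf4 IEC. The receptor genes Lgr4, Fzd5 and Lrp6 had intervals that included 0. Fzd7, another receptor gene, was under the minimum, with 89 UMIs in the control. Without the minimum, 25 genes of the list had a value, 21 of them above 0, with a median of 0.70. Of these, 7 were at least 2-fold higher and 2 at least 2-fold lower, Fzd7 and Wnt3. The 7 include Wnt9b and Apcdd1, which had no UMI in Taf4 IEC and were put at a floor of 3 UMIs.

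Notch, EGF and BMP signals set the balance of renewal and differentiation in the crypt. None of the 4 Notch genes with enough UMIs reached 2-fold (median -0.06), and Hes1, the main effector, was at 2.18 and 2.22 per 10000, a log2 ratio of 0.03 (-0.13 to 0.18). Of 9 genes of the EGF pathway, 3 were at least 2-fold higher and 0 lower (2.94% and 1.78% of all genes), with a median of 0.37. The ligand gene Areg, encoding amphiregulin, was at 0.280 and 1.48 (2.40, 2.14 to 2.66) and was found in 9.27% and 34.4% of the thinned cells. Btc, another EGF receptor ligand, was at 0.152 and 0.332 (1.12, 0.66 to 1.58), and Dusp4, a phosphatase that limits the pathway, at 0.121 and 0.343 (1.51, 1.02 to 1.98). With 96 UMIs in the control, Dusp4 reached the minimum only through its Taf4 IEC level. The receptor genes Erbb2 and Erbb3 had log2 ratios of 0.32 (-0.28 to 0.89) and -0.49 (-1.02 to 0.00), so among the genes with enough UMIs the 2-fold differences lay in ligands and a feedback phosphatase. Without the minimum, 14 genes of the list had a value, 12 of them above 0, with a median of 0.57. Of these, 5 were at least 2-fold higher and 0 lower. The 5 include Egf, which had no UMI in Taf4 IEC and was put at a floor of 3 UMIs. Of 4 BMP genes, Id1, a target of the pathway, was at 0.227 and 0.109 (-1.06, -1.80 to -0.39), and the other 3 stayed under 2-fold. Without the Taf4 IEC cells of 5000 or more genes Id2 was also at least 2-fold lower (-1.60), and the median of these 4 genes was -0.66 rather than -0.10.

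The transcription factor p53 arrests the cell cycle through Cdkn1a, limits itself through Mdm2 and can trigger apoptosis through genes such as Bax. All 13 genes of the list of arrest and feedback with enough UMIs were above 0, and 9 of them were at least 2-fold higher in Taf4 IEC, against 2.94% of all genes, with a median log2 ratio of 1.90. Trp53inp1 and Plk2 reached 100 UMIs only through their Taf4 IEC level, so the whole list was also read without the minimum: all 18 genes were above 0, 11 at least 2-fold higher, and the median was 1.42. Cdkn1a (chr17:29090979-29100722), the inhibitor of cyclin-dependent kinases also known as p21, was at 0.417 per 10000 (0.373 to 0.464) in the control and at 3.34 (3.08 to 3.62) in Taf4 IEC, 8.02-fold, and was found in 39.3% and 81.2% of the cells, or in 15% and 50% after thinning to 5000 UMIs. One Taf4 IEC cell held 23.1% of its UMIs there. Without the Taf4 IEC cells of 5000 or more genes its log2 ratio was 2.52 rather than 3.00, and the median of the list 1.48 over the 10 genes that kept enough UMIs, of which 8 were above 0 and 7 at least 2-fold higher. Trp53inp1, an effector of p53, was at 0.0302 and 0.479 (3.99, 3.32 to 4.70), Plk2, a kinase, at 0.0579 and 0.403 (2.80, 2.25 to 3.36), and Ccng1, encoding cyclin G1, at 0.441 and 1.92 (2.13, 1.91 to 2.34). These genes were rare in control cells. Mdm2 was at 0.170 and 0.523 (1.62, 1.23 to 2.01), and the secreted stress signal gene Gdf15 at 0.452 and 1.71 (1.92, 1.70 to 2.14). Trp53 itself had 1.06 and 1.12 per 10000, a log2 ratio of 0.08 (-0.15 to 0.30), a difference within counting error. Ddb2 and Xpc, which serve in DNA repair, had intervals that included 0. Of the 6 apoptosis genes, Bax at 1.57 and 4.22 (1.42, 1.29 to 1.55) and Ei24 at 0.489 and 1.11 (1.18, 0.93 to 1.43) reached 2-fold, whereas Pmaip1 and Apaf1 did not (0.30, -0.41 to 0.95, and 0.20, -0.55 to 0.89). The median of this list was 0.72. Read without the minimum, as for the arrest list, all 11 apoptosis genes were above 0, 7 at least 2-fold higher, and the median was 1.42. That reading includes genes of few UMIs.

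**Figure D2:**
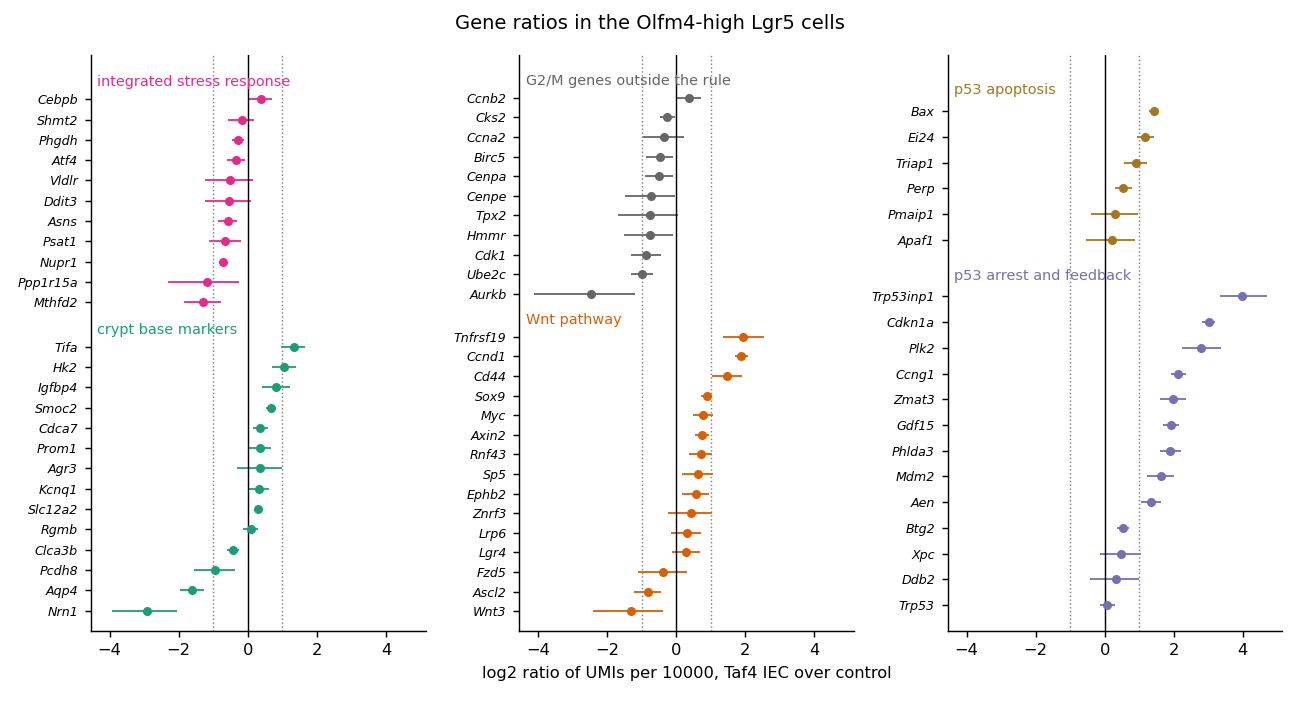
log2 ratio of UMIs per 10000 in the Olfm4-high cells, Taf4 IEC over control, for the genes of 6 lists with at least 100 UMIs. Points are the ratios, lines the 95% counting intervals, the solid line is 0 and the dotted lines are 2-fold. The p53 lists lie to the right of 0 throughout, 10 of the 11 stress response genes to the left, and the crypt base markers on both sides.

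Promoters of 3 named genes are shown because TFIID contains the protein that binds the TATA box, and because p53 binds paired half-sites with the core CATG. The 3 were picked among genes that hold a match, so their matches are no result about the lists. The 250 bases before the annotated start were read from RefSeq, build GRCm38.p6, which is the mm10 build of the counts. Capitals mark TATAA on the gene's strand with its first base 45 to 20 bases before the start, and CATGNNNNNNCATG, which reads the same on both strands. Olfm4 lies on the plus strand with its window at chr14:80000052-80000301, and its TATAA begins 32 bases before the start. Cdkn1a, also on the plus strand, has 2 annotated starts, with windows at chr17:29090729-29090978 and chr17:29093519-29093768. Its first window holds the paired CATG 48 bases before the start, and the second a TATAA 25 bases before it. Areg, on the plus strand at chr5:91139349-91139598, has TATAA 31 bases before the start.
Olfm4: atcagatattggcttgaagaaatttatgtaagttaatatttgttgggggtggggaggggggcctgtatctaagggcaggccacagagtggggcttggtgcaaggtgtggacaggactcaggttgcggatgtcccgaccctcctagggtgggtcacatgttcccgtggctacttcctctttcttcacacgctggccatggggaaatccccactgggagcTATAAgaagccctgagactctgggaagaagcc
Cdkn1a, first start: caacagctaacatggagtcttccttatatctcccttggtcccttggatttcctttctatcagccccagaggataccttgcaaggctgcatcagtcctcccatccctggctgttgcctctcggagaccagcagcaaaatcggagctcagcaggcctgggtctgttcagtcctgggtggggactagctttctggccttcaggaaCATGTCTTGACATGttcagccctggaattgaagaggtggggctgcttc
Cdkn1a, second start: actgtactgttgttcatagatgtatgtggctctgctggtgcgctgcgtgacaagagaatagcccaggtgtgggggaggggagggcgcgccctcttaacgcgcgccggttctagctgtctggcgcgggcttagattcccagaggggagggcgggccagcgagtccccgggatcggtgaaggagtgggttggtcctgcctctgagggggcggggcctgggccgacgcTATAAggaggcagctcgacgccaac
Areg: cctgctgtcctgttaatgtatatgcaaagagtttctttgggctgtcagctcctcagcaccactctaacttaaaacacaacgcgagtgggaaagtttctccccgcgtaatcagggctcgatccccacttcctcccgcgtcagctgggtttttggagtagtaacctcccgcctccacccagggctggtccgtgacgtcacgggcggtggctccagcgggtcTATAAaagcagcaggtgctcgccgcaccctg

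These letters were then counted over all genes. A RefSeq window was found for 5409 of the 6811 genes. TATAA at this place occurred in 4.67% of all 27025 genes with a window, in 2.53% of the 5409, in 7.78% of the 167 genes with a window that were at least 2-fold higher in Taf4 IEC and in 10.9% of the 92 that were at least 2-fold lower. The share was thus above both of these in either direction, but rests on 13 genes and 10 genes and was not tested. The genes that were at least 2-fold lower include lineage genes such as Gcg and Pyy. For these 2, 1 control cell held 92.5% and 89.2% of the control UMIs, and the part of such genes in the share was not tested. TATAA at this place occurred in 4 of the 10 crypt base markers with a window, Olfm4 (a gene of the rule), Pcdh8, Rgmb and Igfbp4. Among genes with a window it occurred in 0 of 10 Wnt genes, 0 of 4 p53 apoptosis genes and 1 of 9 p53 arrest and feedback genes. CATGNNNNNNCATG occurred in 0.351% of the 5409 genes and, within the 9 p53 arrest and feedback genes with a window, in Cdkn1a only. A match is a description of the letters and shows no binding.

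Transcripts of the integrated stress response, in which the transcription factor Atf4 raises amino acid synthesis and transport, were mostly lower. Of 11 genes, 10 were under 0 and 2 of them at least 2-fold lower, against 1.78% of all genes, with a median log2 ratio of -0.54. Mthfd2, a mitochondrial folate enzyme, was at 0.442 and 0.180 per 10000 (-1.30, -1.86 to -0.78), Ppp1r15a, which ends the response, at 0.125 and 0.0545 (-1.19, -2.30 to -0.26), and Nupr1, a stress-induced chromatin protein gene and the most abundant of the list, at 5.87 and 3.59 (-0.71, -0.83 to -0.59). Atf4 was at 1.06 and 0.844 (-0.33, -0.59 to -0.09) and Asns, asparagine synthetase, at 1.06 and 0.714 (-0.58, -0.85 to -0.31). In cells thinned to 5000 UMIs before the rule, Mthfd2 and Ppp1r15a were no longer 2-fold lower (-0.63 and -0.19). Cebpb was the exception at 0.409 and 0.528 (0.37, 0.03 to 0.70).

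Cell cycle genes outside the rule are linked to it, since cells with high proliferation sums were left out in both libraries. Among the G1 regulators, Ccnd1 and Ccnd2, the genes of cyclins D1 and D2, were at least 2-fold higher, the latter at 2.64 and 5.56 per 10000 (1.08, 0.97 to 1.19), whereas Ccnd3 was at 0.344 and 0.223 (-0.62, -1.13 to -0.14). Their partners Cdk4 and Cdk6 had ratios of 0.12 (0.01 to 0.24) and 0.57 (0.39 to 0.74). Ccnd1 and Ccnd2, which drive the entry into the cycle, and the cycle inhibitor Cdkn1a were thus higher in the same population. Of 17 S phase genes none reached 2-fold (median -0.21), with Dut, which guards against uracil in DNA, at 1.91 and 1.16 (-0.72, -0.93 to -0.51). Without the Taf4 IEC cells of 5000 or more genes the median was -0.77 over 16 genes, and 5 of them were at least 2-fold lower (Uhrf1 at -2.17, Lig1 at -1.64, Prim1 at -1.61, Fen1 at -1.56 and Hells at -1.21). Of 11 G2/M genes 10 were under 0 (median -0.72). Aurkb, the mitotic kinase Aurora B, was at 0.150 and 0.0272 (-2.46, -4.11 to -1.2) with 5 UMIs in Taf4 IEC and a ratio of -0.03 in the thinned cells, and Ube2c, which serves in the exit from mitosis, at 1.06 and 0.534 (-0.99, -1.31 to -0.69). The 6 E2f and pocket protein genes stayed under 2-fold with a median of 0.12.

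Of the remaining lists, the ribosomal one stood below the median of all genes. The 80 cytosolic ribosomal protein genes had a median of -0.35, and 70 of them were under 0, although Rps2 (1.22) and Rps18 (1.02) were at least 2-fold higher. The 77 nuclear genes of the respiratory chain had a median of 0.24, equal to that of all genes, and the 13 mitochondrial transcripts 0.19. Glycolysis had a median of -0.12 over 14 genes with none past 2-fold, its lowest being Pfkp, a phosphofructokinase, at 0.928 and 0.485 (-0.94, -1.27 to -0.62). The 12 genes of fatty acid oxidation and ketogenesis had a median of 0.13 with none past 2-fold. None of the 10 genes of the Polycomb Repressive Complex 2 list, which includes its opposing demethylases, reached 2-fold (median 0.28), with the methyltransferase gene Ezh2 at 0.891 and 1.02 (0.20, -0.04 to 0.43). The 8 intestinal transcription factors had a median of 0.17 and none past 2-fold, Cdx2 being at 1.33 and 1.49 (0.17, -0.03 to 0.36), and the 3 antigen presentation genes a median of 0.02. Immediate early genes were mixed, with a median of 0.09 over 12 genes, Ier3 at least 2-fold higher (0.285 and 0.692) and Fosb (0.268 and 0.114) and Klf4 (0.311 and 0.153) at least 2-fold lower. Of 4 regenerative genes, Krt19, a keratin gene, was at 5.22 and 9.38 (0.85, 0.76 to 0.93) and S100a6 at 0.267 and 0.0381 (-2.81, -4.14 to -1.74).

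Beyond the lists, the 10 highest ratios among genes with at least 200 UMIs were those of Cdkn1a, Itln1, Hist1h2bc, Chga, Areg, Ces2e, Ccng1, Zmat3, Gdf15 and Phlda3, of which 5 are p53 targets of the list above. Hist1h2bc, a histone H2B gene, was at 0.327 per 10000 in the control and 2.15 in Taf4 IEC (2.71, 2.48 to 2.94) and in 29.6% and 79.7% of the cells. Ces2e, a carboxylesterase gene, was at 0.194 and 0.871 (2.17, 1.84 to 2.50). Without the Taf4 IEC cells of 5000 or more genes, Hist1h2bc was at 2.86 and Ces2e at 1.26. The ratio of Itln1, a Paneth and goblet cell lectin with near-identical paralogues, rested in part on 1 cell with 36.5% of its UMIs in Taf4 IEC, and that of Chga, an enteroendocrine gene, on 1 cell with 65.2%.

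The 10 lowest were Gm10260, Clps, Bex1, Spp2, Gcg, Pyy, Chgb, Reg4, Gm12166 and Gm11361. Gm10260, a numbered gene model whose reads may be shared with similar copies, had 5862 UMIs in the control, with 1 or more in every cell, and 1 UMI in Taf4 IEC, a log2 ratio of -10.4 (-15.7 to -7.93). Bex1, an X-linked gene, was at 6.13 and 0.136 per 10000 and in 97.2% and 3.12% of the cells, with 96.0% of its 25 Taf4 IEC UMIs in 1 cell, and Spp2 at 1.06 and 0.0599. These differences were not particular to the Olfm4-high cells: in the Olfm4-low cells Gm10260 was at 6.96 and 0.00589, Bex1 at 4.51 and 0.00785, and Spp2 at 1.17 and 0.128 per 10000. The libraries thus differ in these genes throughout, and whether the enteroid lines or the condition differ in them cannot be told apart. Gcg, Pyy and Chgb, hormone and granule genes of enteroendocrine cells, rested on few control cells, 1 cell each holding 92.5%, 89.2% and 48.0% of their UMIs. Pyy had 0 UMIs in Taf4 IEC and was at least 15.6-fold lower against a floor of 3 UMIs over the library, with an exact interval of the log2 ratio that reaches -3.66.

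Other named genes that moved by over 1.5 times without the Taf4 IEC cells of 5000 or more genes included Fosb at -4.06, Klf4 at -2.28, S100a6 at -1.73 and Myc at 0.16. Aurkb was then at -3.22 and Chgb at -4.81. Bex1 (-6.99), Gm10260 (-7.26), Clps (-3.41) and Pyy (-2.41) had no UMI in the Taf4 IEC cells that were left and were put at the floor of 3 UMIs. Their values are set by this floor and the smaller total, and are not measured shifts. Aqp4 was at -2.09, Ccnd1 at 1.40 and Sox9 at 0.56. Btc (0.92), Ei24 (0.93) and Ppp1r15a (-0.96) were then under 2-fold, and Taf13 (1.02) and Ube2c (-1.46) past it. Xpc (-0.19) and Trp53 (-0.19) were then under 0. These values rest on 30 Taf4 IEC cells, and why they differ from those of all Taf4 IEC cells was not tested.

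Compared with the Olfm4-low cells of the same library, the Olfm4-high cells were poor in secretory and enterocyte transcripts. Of 8705 genes with at least 50 UMIs in either population of each library, 9 were at least 2-fold higher in the Olfm4-high cells in both libraries, Olfm4 among them, and 241 at least 2-fold lower. The counts were 17 higher and 331 lower in the control, and 286 higher and 531 lower in Taf4 IEC. With cells of under 5000 genes alone, 4 were higher in both. Leading among the former after Olfm4 was Clca3b, at 2.18 against 0.782 per 10000 in the control and 1.63 against 0.190 in Taf4 IEC. Gkap1 was at 0.252 against 0.0943 and 0.202 against 0.0608, Cbs, the cystathionine synthase gene, at 0.286 against 0.114 and 0.245 against 0.0952, and Cdca7, a gene linked to cell division, at 1.03 against 0.451 and 1.32 against 0.319. Lowest in the Olfm4-high cells were Ang4, an antimicrobial gene of Paneth and goblet cells, Ly6d and Clec2h, and Tff3 and Muc2, the goblet cell genes of trefoil factor 3 and mucin 2. Tff3 was at 3.16 against 36.9 per 10000 in the control and 1.39 against 78.5 in Taf4 IEC. The Olfm4-low population thus included cells with strong secretory programs, which weigh on every ratio against it. In the proliferating Olfm4-high cells Clca3b was at 2.16 and 1.68 and Smoc2 at 2.54 and 4.02 per 10000. Against these cells 45 genes were at least 2-fold higher and 92 at least 2-fold lower in both libraries.

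**Figure D3:**
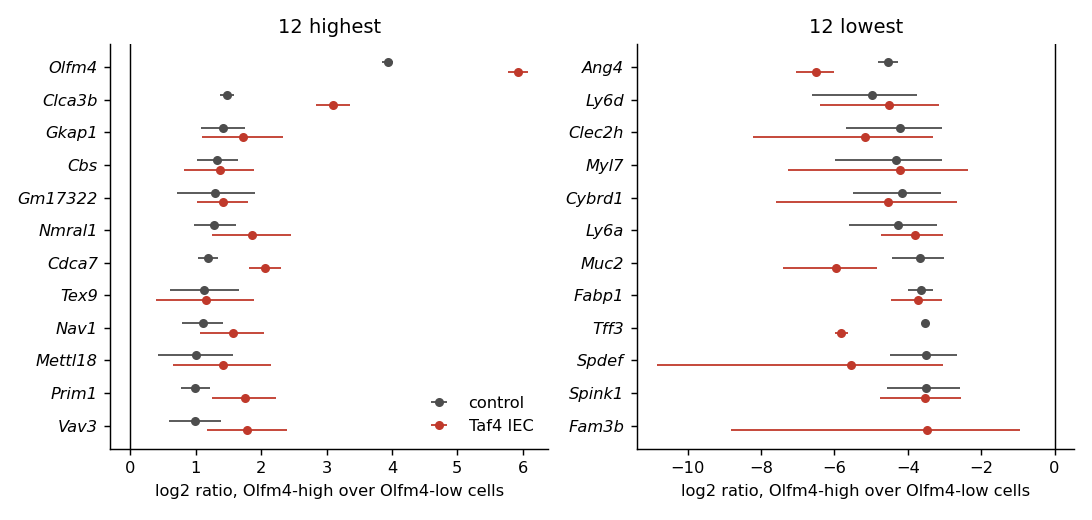
log2 ratio of UMIs per 10000 in Olfm4-high over Olfm4-low Lgr5 cells, both with low proliferation, within the control (grey) and Taf4 IEC (red) library, for the 12 genes highest and the 12 lowest in both. Lines are 95% counting intervals, Fam3b has no control point because its control UMIs were 0, and Olfm4 itself defined the populations. Clca3b is the highest gene that the rule did not use, with log2 ratios of 1.48 and 3.1.

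The ratios between the libraries were not the same in the neighbouring populations. The median of the crypt base list was 0.34 in the Olfm4-high cells, -0.23 in the Olfm4-low and 0.14 in the proliferating cells. Clca3b had a log2 ratio of -0.42 (-0.60 to -0.24) in the Olfm4-high and -2.04 (-2.27 to -1.82) in the Olfm4-low cells, and Ascl2 -0.82 (-1.21 to -0.44) and -1.88 (-2.17 to -1.60). Sox9 had 0.88 (0.72 to 1.03) and 0.09 (-0.03 to 0.20), and Axin2 0.75 (0.56 to 0.94) and 0.18 (0.03 to 0.32). For these 4 genes the counting intervals of the 2 populations did not overlap. Cdkn1a had higher levels in the Olfm4-low and the larger ratio in the Olfm4-high cells: it was at 0.417 and 3.34 per 10000 in the Olfm4-high cells and at 1.88 and 5.80 in the Olfm4-low cells, log2 ratios of 3.00 (2.81 to 3.20) and 1.62 (1.56 to 1.69). The medians of the S phase list were -0.21 and -1.21, and those of the stress response list -0.54 and -1.09. The Olfm4-low cells also held the secretory cells named above in different amounts in the libraries, with a goblet sum of 70.0 and 176 per 10000, and their part in these differences was not tested.

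Cell to cell, the genes of highest variance over mean after thinning to 5000 UMIs were of 2 kinds. In the control they included lineage genes found in few cells, such as Defa24, Gcg, Cck, Chgb, Lyz1, Spink4 and Tff3, with Gcg in 2.26% of the thinned cells, and genes found in all cells, such as Mt1, a metallothionein gene with a median of 51 UMIs, and mitochondrial transcripts. In Taf4 IEC, Malat1, Mt1, Gm42418, Chga and Cdkn1a were at the top. Cdkn1a had a thinned median of 0.5 UMI and a highest value of 32 in Taf4 IEC, and a median of 0 and a highest value of 3 in the control. Across the Olfm4-high cells, Olfm4 and Lgr5 per 10000 had Spearman's rho of 0.0889 over 399 control cells and 0.418 over 64 Taf4 IEC cells. Both share the cell's total, and the 2 genes were used in the rule.

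The sum of 28 p53 targets (both p53 lists without Trp53) was spread widely in Taf4 IEC. It ran from 1.16 to 30.8 UMIs per 10000 with a median of 6.91 in the control, and from 2.77 to 67.1 with a median of 20.3 in Taf4 IEC. Of the 64 Taf4 IEC cells, 45 (70.3%) lay above 11.5, the 90th percentile of the control cells, 15 lay above the highest control cell, and 19 lay at or under 11.5. Within 2 per 10000 of this value lay 8 of the Taf4 IEC cells, and whether they form 1 range or separate groups was not tested. Median Olfm4 was 23.2 per 10000 in the lower range of Taf4 IEC cells and 13.9 in the upper, and Lgr5 2.53 and 2.11. Both genes were part of the rule, and levels from summed UMIs lay closer, at 23.7 and 20.5 for Olfm4 and 2.61 and 2.59 for Lgr5. Across the 64 Taf4 IEC cells, Olfm4 and the p53 target sum had Spearman's rho of -0.159 and Pearson's r of 0.046.

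**Figure D4:**
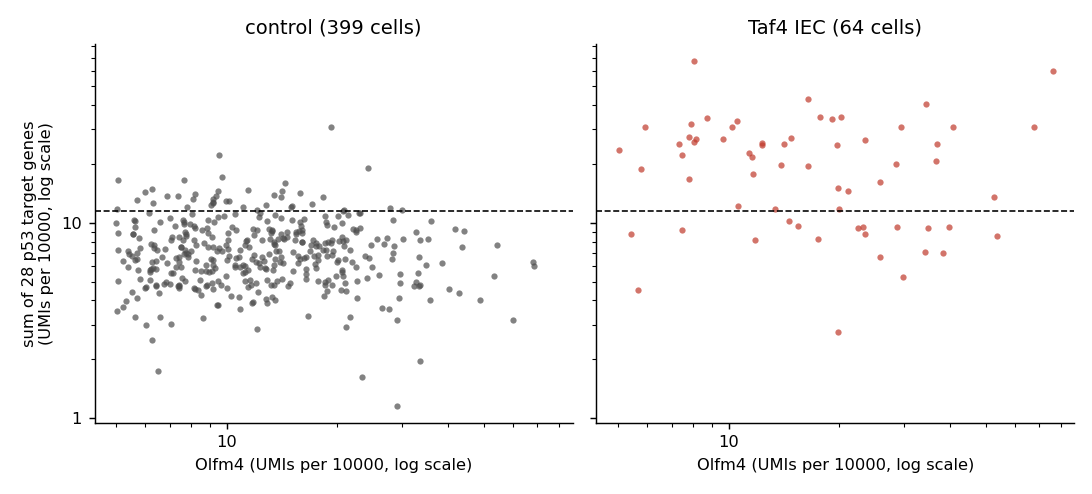
Olfm4 against the sum of 28 p53 target genes, both in UMIs per 10000 on log scales, for each Olfm4-high cell of the control (left, grey) and Taf4 IEC (right, red) library. The dashed line is the 90th percentile of the control cells, 11.5. Of the Taf4 IEC cells, 45 lie above it and 19 at or under it.

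The 2 ranges of Taf4 IEC cells shared some differences from the control and not others. The p53 targets themselves defined the ranges and are not compared. Median depth was 32946 UMIs in the 19 cells of the lower range and 30198 in the 45 of the upper. Aqp4 was at 0.417 (0.264 to 0.626) and 0.397 (0.296 to 0.522) per 10000 in the lower and upper range, against 1.23 in the control, and Ccnd1 at 2.07 (1.71 to 2.48) and 2.72 (2.44 to 3.02) against 0.682. Polr2a, the gene of the largest subunit of RNA polymerase II, was at 1.49 (1.18 to 1.85) and 1.39 (1.2 to 1.61) against 0.495, and Mthfd2 at 0.20 (0.0996 to 0.357) and 0.171 (0.107 to 0.259) against 0.442. These genes stood apart from the control in cells with few p53 target transcripts too. Hist1h2bc was higher in the lower range, at 3.25 (2.79 to 3.76), than in the upper, at 1.67 (1.46 to 1.91), against 0.327 in the control.

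Other genes differed between the ranges. Areg was at 0.707 (0.503 to 0.967) in the lower and 1.81 (1.58 to 2.05) in the upper range, against 0.280, and Ccnd2 at 3.43 (2.96 to 3.95) and 6.48 (6.04 to 6.93) against 2.64. Dcxr, a sugar reductase gene, was at 0.327 (0.194 to 0.516) and 1.88 (1.65 to 2.13) against 0.438, and Lmna, the lamin A gene, at 0.635 (0.442 to 0.883) and 1.68 (1.46 to 1.92) against 0.447. Clca3b was at 2.23 (1.85 to 2.66) in the lower range, near the 2.18 of the control, and at 1.37 (1.18 to 1.59) in the upper. Cdca7 and Hells, a replication-linked helicase gene, were at 1.98 and 0.925 in the lower and 1.04 and 0.444 in the upper range, against 1.03 and 0.743.

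**Figure D5:**
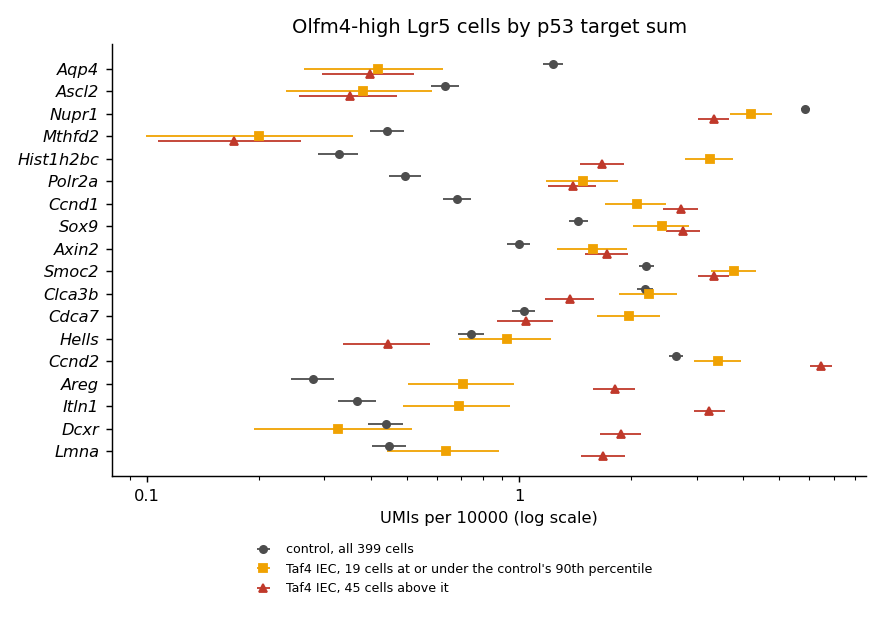
UMIs per 10000 (log scale) of 18 genes in the control Olfm4-high cells (grey circles) and in the Taf4 IEC Olfm4-high cells at or under (orange squares) and above (red triangles) the control's 90th percentile of the p53 target sum. Lines are 95% Poisson intervals. Aqp4, Ccnd1 and Polr2a are alike in both Taf4 IEC ranges and apart from the control, whereas Areg, Ccnd2, Dcxr and Lmna are highest in the upper range.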

How the data were processed

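The deposited matrices hold UMI counts per gene and cell, made by the authors, per the submitters' processing notes and the study's methods, with bcl2fastq 2.17.1.14, Cell Ranger 3.1 on mm10 and Seurat 3.1.4, 1 matrix per library. They were used as deposited. UMIs of the selected cells were summed per library and given per 10000 UMIs, which makes levels of different genes a matter of transcript number from the 3′ end. Ratios between libraries were taken for genes with at least 100 UMIs over both, and a gene was called when its ratio was at least 2-fold, since 1 library per group allows no test. Intervals (95%) are Poisson for levels, Clopper-Pearson for shares, exact conditional binomial for ratios and Newcombe for the difference of shares. They cover counting error only, and UMIs of 1 cell are not independent of each other. Thinning drew 5000 UMIs per cell without replacement. The same steps were tested on simulated counts. No doublet caller was run, and an alternative left out cells with 20 or more UMIs per 10000 of other-lineage markers.

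The cells, the 24 gene lists and the naming rule were chosen with earlier results of these data known. Named were Taf4 and Taf4b, up to about 6 genes of each list with preference for the largest ratios, the 10 highest and 10 lowest ratios of genes with at least 200 UMIs, the 12 genes highest and 12 lowest against Olfm4-low cells in both libraries, and the genes of highest variance over mean after thinning. Polr2a, Dcxr, Lmna, Rps2 and Rps18 were named after their values were seen. Numbered gene models, defensins and Itln1 share sequence with near-identical copies, so their counts are uncertain. Promoter windows came from RefSeq, build GRCm38.p6, by symbol. Alternatives changed the UMI minimum, the Olfm4 and proliferation limits, the depth by thinning, the total, the weight of cells, the cells kept, the gene minimum and the centring. The alternatives with cells of under 5000 genes, with thinned cells on the unthinned gene set, and with no UMI minimum for the lists were chosen after seeing the data. Python 3.11.15, numpy 2.4.6, scipy 1.17.1, pandas 2.3.3 and matplotlib 3.10.9 were used.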

Additional observations from a re-analysis of the deposited data

How the results depend on the processing

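No paired analysis was possible because each condition has 1 library. The share of Olfm4-high, low proliferation cells among deep cells stayed lower in Taf4 IEC under every alternative that changes it. Relative to the control it was at -11.6 points as reported and -8.0 with Olfm4 at 8 or more per 10000. It was at -5.68 with proliferation sums under 4 and at -6.52 in cells thinned to 5000 UMIs. The count of genes at least 2-fold higher, 200 as reported, was 128 with proliferation sums under 4, 30 in thinned cells, 100 without mitochondrial and ribosomal protein genes in the total, 381 and 51 with gene minimums of 50 and 300 UMIs, 87 relative to the median ratio, and 694 in thinned cells on the genes that passed before thinning. The count of genes at least 2-fold lower, 121 as reported, was 29 in thinned cells, 239 and 52 with minimums of 50 and 300, 205 relative to the median ratio, 266 in cells with under 5000 genes and 507 in thinned cells on the genes that passed before thinning. The larger counts at low UMI totals include genes of few UMIs, whose ratios carry wide counting error. The median of the p53 arrest and feedback list, 1.90 as reported, was -0.20 in thinned cells, where only Cdkn1a, Btg2 and Trp53 kept 100 UMIs, 1.48 in cells with under 5000 genes, 1.54 in thinned cells on all 13 genes, and 1.42 over all 18 listed genes without a UMI minimum. The number of genes at least 2-fold above Olfm4-low cells in both libraries was 9, and 4 in cells with under 5000 genes. The medians of 3 other lists changed sign near 0: reserve SC markers were at -0.026 in thinned cells, and relative to the median ratio the respiratory chain was at -0.00799 and mitochondrial transcripts at -0.058. The Wnt median stayed between 0.38 and 0.74.

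Of 208 named genes with a ratio, 46 were at least 2-fold as reported. All 46 kept their direction under each alternative that gave them a value, and 31 stayed at least 2-fold in each. With 64 Taf4 IEC cells and 1835982 UMIs, a low gene such as Wnt3 (0.0545 per 10000) rests on 10 UMIs, and the spread between cultures is unknown.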
